A study of Mus musculus with 30 samples.

Results

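The comparison set the arrays taken 3 to 4 h after an intravenous injection against those taken 1 to 1.5 h after it, across both injections of the study. It used 20 of the 30 arrays, 8 late and 12 early, chosen by their labelled time alone. All animals were female C57BL/6J mice aged 6 weeks under xylazine and ketamine anaesthesia. Each received 200 µl into the tail vein, either physiological serum or oleic acid (OA) at 1.2 µl/g, the fatty acid used in this study to injure the lung. Early arrays were 3 serum and 3 OA at 1 h, and 3 serum and 3 OA at 1.5 h. Late arrays were 2 serum and 3 OA at 3 h, and 1 serum and 2 OA at 4 h. The fit held treatment as a term, so the difference reported is a weighted average of the time changes in the serum and the OA animals. It need not be a change that both share. Over all genes tested, the changes in serum and in OA had the same sign for 45.5% of genes. Blood was drawn once per animal at killing, and 1 array stood for each of the 30 mice. No array of uninjected mice was among those used, and the labels give no clock time, so time after injection, time since anaesthesia and hour of the day cannot be told apart.

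Peripheral blood mononuclear cells (PBMC) are the lymphocytes (T, B and natural killer, NK), monocytes and dendritic cells that float above a density cushion, together with platelets and some granulocytes. Lymphocytes and monocytes move between blood, marrow, spleen and lymph nodes within hours, under the control of chemokine receptors, selectins and adrenal hormones. Platelets carry RNA from their parent megakaryocytes and can adhere to leukocytes. In a bulk sample of this kind, fewer cells of a type and less RNA per cell cannot be told apart.

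Levels are log2 processed signals relative to the 75th percentile of all probes on the same array, so a level of 0 is that percentile and a difference of 1 is a doubling. That percentile ran from 40.2 to 152 in signal units, and the share of probes well above background from 35.4% to 65.1%. Array number limits the precision. Pairwise correlations between arrays ran from 0.806 to 0.984. The array of OA 4 h replicate 2 stood apart, with 1408 outlier spots (91 to 252 on the others) and a median correlation of 0.857 with the other arrays. Signal from intergenic RNA probes relative to always-detected probes averaged −3.67 (SD 0.41, n = 6) in early serum, −3.93 (SD 0.40, n = 3) in late serum, −4.33 (SD 0.37, n = 6) in early OA and −3.69 (SD 0.89, n = 5) in late OA arrays. On OA 4 h replicate 2 it was −2.29.

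Between 1 to 1.5 h and 3 to 4 h, 111 genes fell and 33 rose by the test in mononuclear blood cells, while 55.2% of all genes tested lay above 0. The balance of calls turned to 310 higher and 207 lower without OA 4 h replicate 2, and to 705 and 418 with the intergenic signal as a covariate. Among those that fell were the B cell genes Cr2, Ms4a1 and Bank1, the dendritic cell lectin gene Cd209a, the monocyte receptor gene Ccr2, and Tnf, Il4i1 and Hk2. Trnp1 and Tex45 led the rises. Of 24107 genes or unnamed transcripts tested, 144 passed at an adjusted p under 0.05 (0.597%), 33 higher (0.137%) and 111 lower (0.460%), while 3125 had an unadjusted p under 0.05. Adjusted p values here are Benjamini-Hochberg values over all genes from limma's moderated test. Fold sizes of the 33 ran from 1.57 to 4.99 (median 2.09), and those of the 111 from 1.51 to 4.35 (median 2.13). The 111 genes that fell were mostly well expressed, 80 of them detected on all 20 arrays and 84 with a gene symbol. Of the 33 that rose, 11 were detected on all 20 arrays, 17 had a symbol and 5 were long intergenic RNAs, against 12851 genes (53.3%) detected on all arrays and 3590 long intergenic RNAs (14.9%) among those tested. The median difference over all genes was 0.04.

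The number of calls depended on the scaling and on single arrays. Lower genes made up 77.1% of calls here, 51.1% when arrays were scaled to the median of always-detected probes (459 higher, 480 lower), 63.3% with quantile normalization (187 and 323), 67.0% in the authors' deposited table (260 and 528) and 93.0% with normexp background correction (3 and 40). All 144 genes kept their direction under each of these, though their choice on the same arrays largely fixes it. Without OA 4 h replicate 2 the counts were 310 higher and 207 lower, without OA 1.5 h replicate 2 they were 102 and 118, and without serum 3 h replicate 1 they were 30 and 191. They fell to 5 and 28 without OA 3 h replicate 2, to 7 and 31 without serum 3 h replicate 2, and to 6 and 61 without serum 4 h replicate 1. Leaving out OA 4 h replicate 1 gave 8 and 46, and OA 3 h replicate 3 gave 17 and 86. Among early OA arrays the counts were 11 and 69, 8 and 34, and 6 and 32 without 1 h replicates 1, 2 and 3, and 18 and 53, and 10 and 47, without 1.5 h replicates 1 and 3. Among early serum arrays they were 10 and 49 without 1 h replicate 3, and 10 and 55, and 11 and 69, without 1.5 h replicates 1 and 2. In all 20 of these fits the 144 genes kept their direction, which their choice on the same arrays largely fixes.

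The time change of the 144 genes had the same sign in serum and in OA arrays taken alone. This sharing is in part a property of the joint test, which favours genes that move together. Across all 24107 genes the serum and OA changes, which share no array though they share slides, had r = −0.208, and 45.5% of genes had the same sign. A block of genes stood higher late in OA and lower late in serum, opposite in sign, as the intergenic signal was. Of the genes tested, 3590 (14.9%) are long intergenic RNAs, whose probes make up that signal, so part of the likeness is built in. With the intergenic signal as a covariate all 144 genes were called again, among 705 higher and 418 lower. Their choice on the same arrays favours this. Arrays came from 5 slides, each with early and late arrays. Within the slides, 32 to 33 of the 33 higher genes were higher late and 106 to 111 of the 111 lower genes were lower late, counts that the choice of these genes on the same arrays largely fixes. With the slide as a fixed block 11 genes were called higher and 55 lower.

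**Figure D1:**
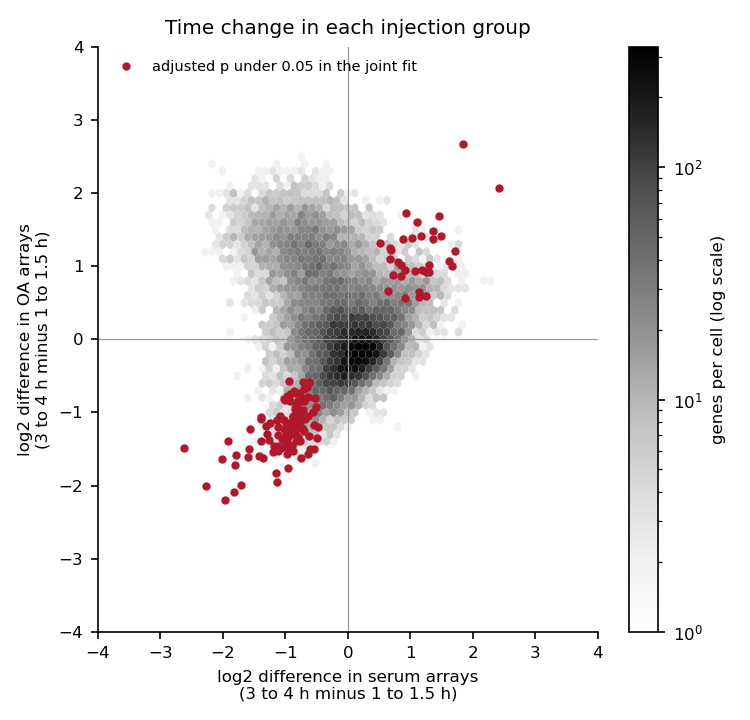
Log2 difference between 3 to 4 h and 1 to 1.5 h in serum arrays (horizontal axis) and in OA arrays (vertical axis) for all genes tested, with grey shade for the number of genes per cell on a log scale and red points for the 144 genes called in the joint fit. The red points lie in the quadrants of equal sign, while a cloud of other genes lies high in OA and low in serum.

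Dendritic cells, which take up and present antigen, and monocytes gave some of the largest falls. Cd209a, a C-type lectin of monocyte-derived dendritic cells (probe at chr8:3743481-3743540, mm9), ranged from −1.01 to 0.61 early (median 0.02) and from −3.53 to −0.50 late (median −1.87). The ranges overlapped, with OA 4 h replicate 1 as the late array within the early range. Cd209a fell by 1.97 (SE 0.30, 3.91-fold, adjusted p = 0.00482), with −2.63 (SE 0.43) in serum and −1.48 (SE 0.36) in OA. Clec10a, a galactose-binding lectin of dendritic cells and macrophages, ranged from −2.43 to −0.36 early (median −0.82) and from −4.49 to −0.98 late (median −3.59). It fell by 2.10 (SE 0.39, adjusted p = 0.0208) and was detected on 11 of 12 early and 3 of 8 late arrays. Batf3, a transcription factor required for cross-presenting dendritic cells, fell by 1.52 (SE 0.31, adjusted p = 0.033), from a median of −0.28 to −1.62, with some overlap. Pla2g2d, a secreted phospholipase of dendritic cells and macrophages, fell by 1.53 (SE 0.30, adjusted p = 0.0262).

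Of 10 dendritic cell genes measured, 9 lay below 0 and Cd209a was the member called (median −0.34). The growth factor receptor Flt3 stood at −0.65 (SE 0.20, adjusted p = 0.13) and the lineage factor Irf8 at −0.64 (SE 0.24, adjusted p = 0.232). Mean levels of the list ran from 1.77 to 2.41 on early and from 0.99 to 1.97 on late arrays. Among 11 classical monocyte genes 8 lay below 0 (median −0.47) and 2 fell, Ccr2 among them. Ccr2, the chemokine receptor by which these monocytes leave the marrow, ranged from 0.73 to 2.05 early (median 1.35) and from −1.04 to 1.01 late (median 0.11). It fell by 1.37 (SE 0.27, 2.58-fold, adjusted p = 0.0264), with 2 late arrays inside the early range. Mpeg1, a pore-forming protein of macrophages, stood at −1.10 (SE 0.34, adjusted p = 0.132). Without OA 4 h replicate 2 the median of the monocyte list went from −0.47 to −0.16. The 10 patrolling monocyte genes had a median of −0.14 (0.02 without OA 4 h replicate 2) and none was called.

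**Figure D2:**
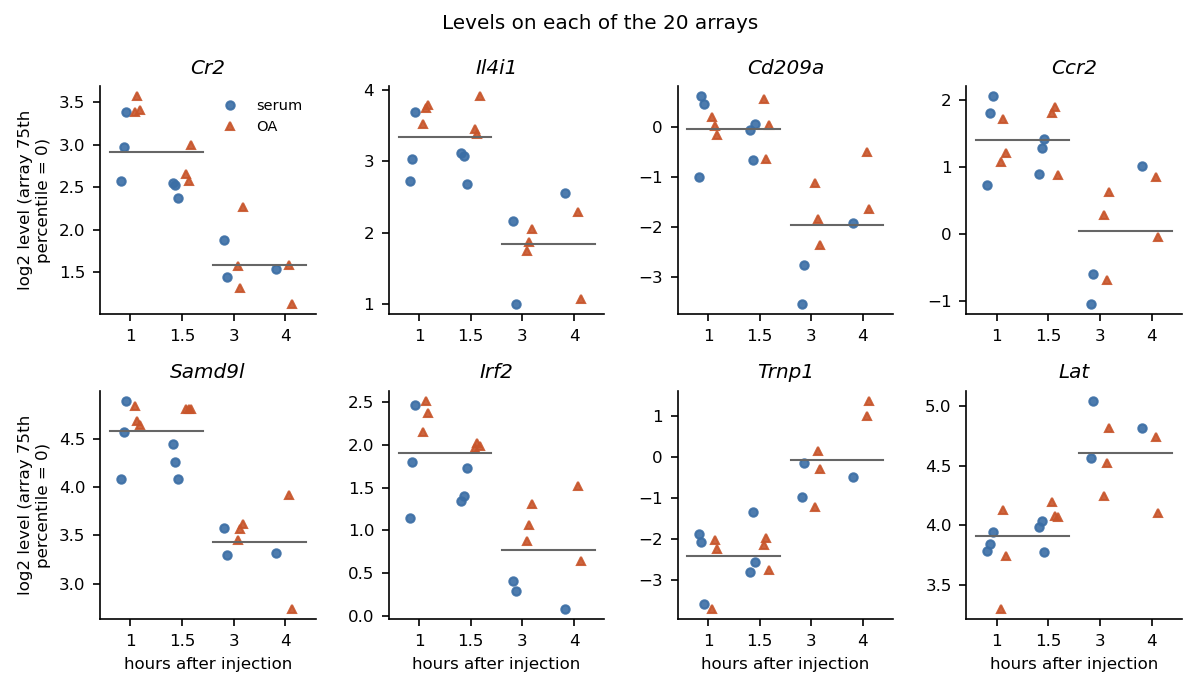
Log2 level of 8 genes (vertical axes, array 75th percentile = 0) on each of the 20 arrays by hours after injection (horizontal axes), with circles for serum, triangles for OA and grey lines at the means of early and late arrays. Late arrays lie below all early arrays for Cr2, Il4i1 and Samd9l and above them for Trnp1, and the groups overlap for the other 4 genes.

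All 14 B cell genes lay below 0 (median −0.76), and 3 of them fell. Cr2, complement receptor 2 of the B cell co-receptor (probe at chr1:196965532-196965591, mm9), ranged from 2.38 to 3.57 on early arrays (median 2.82) and from 1.13 to 2.26 on late arrays (median 1.55). The ranges did not touch, as for 12 of the 24107 genes with all late arrays lower (0.0498%). Cr2 fell by 1.35 (SE 0.19, 2.55-fold, adjusted p = 0.00326), with −1.11 (SE 0.30) in serum and −1.53 (SE 0.25) in OA. Ms4a1, the surface protein CD20, ranged from 4.40 to 6.02 early (median 5.39) and from 2.50 to 4.77 late (median 4.25). It fell by 1.39 (SE 0.25, adjusted p = 0.0208). Bank1, a scaffold of B cell receptor signalling, fell by 1.34 (SE 0.28, adjusted p = 0.0367). The receptor component Cd79a stood at −0.89 (SE 0.26, adjusted p = 0.115) and Fcer2a, the low-affinity IgE receptor, at −1.20 (SE 0.30, adjusted p = 0.0666). The list mean ran from 3.25 to 4.41 on early and from 2.05 to 3.85 on late arrays. By injection the list median was −0.33 in serum and −1.09 in OA.

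Further B cell and antigen presentation genes fell, and these were chosen for mention after their values were seen. They were Cd40, the receptor for T cell help (−1.32, SE 0.22, adjusted p = 0.0126), and H2-Eb2, an MHC class II beta chain (−1.42, SE 0.26, adjusted p = 0.0202). The B cell and plasmacytoid dendritic cell factor Spib stood at −1.24 (SE 0.28, adjusted p = 0.0489) and the chemokine receptor Ccr6 at −1.12 (SE 0.22, adjusted p = 0.0306). Cd38, an NAD-consuming surface enzyme, was lower by 1.09 on the log2 scale (SE 0.21, adjusted p = 0.0237), and the phosphatase Ptpn6, which dampens antigen receptor signals, fell by 0.97 (SE 0.16, adjusted p = 0.0124). Ptpn6 ranged from 5.30 to 6.04 early and from 3.78 to 4.89 late, without overlap.

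The amino acid enzyme genes Il4i1 and Kynu also fell. Il4i1, a secreted amino acid oxidase of B cells and myeloid cells (probe at chr7:52096115-52096174, mm9), ranged from 2.69 to 3.91 early (median 3.42) and from 1.01 to 2.56 late (median 1.96). No late array reached the lowest early one. Il4i1 fell by 1.54 (SE 0.22, 2.91-fold, adjusted p = 0.00326), with −1.15 (SE 0.32) in serum and −1.83 (SE 0.27) in OA. Kynu, the kynureninase of the tryptophan pathway, fell by 1.51 (SE 0.24, adjusted p = 0.00629), from a median of −1.43 to −2.86, and was detected on 11 early arrays and 1 late array. Kmo, the enzyme that hydroxylates kynurenine, fell by 1.23 (SE 0.21, adjusted p = 0.0155) and was picked out after its values were seen.

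Elf3, Plet1, Emp1 and Trex2, among the largest falls, are best known from epithelia, for which no list other than that of the lung was set. Elf3, a transcription factor of epithelial cells, ranged from −3.57 to −0.35 early (median −1.44) and from −5.02 to −2.28 late (median −3.74). It fell by 2.12 (SE 0.44, 4.35-fold, adjusted p = 0.0337), and 7 early arrays and 1 late array detected it. Over the alternative fits its difference ran from −2.63 to −0.46. Plet1, a surface protein of epithelial progenitors that is also present on some myeloid cells, ranged from 1.10 to 4.21 early (median 3.59) and from −0.08 to 2.01 late (median 1.39). It fell by 1.97 (SE 0.41, adjusted p = 0.0367), and 3 of 12 early arrays lay within the late range. Emp1, an epithelial membrane protein, fell by 1.76 (SE 0.39, adjusted p = 0.0441) and Lratd1 by 1.87 (SE 0.37, adjusted p = 0.0264). Trex2, a DNA exonuclease of keratinocytes, fell by 1.80 (SE 0.37, adjusted p = 0.0314) and was detected on 7 early arrays and 1 late array. Krt6b, an epidermal keratin looked up after these values, fell by 1.10 (SE 0.24, adjusted p = 0.0393). Other falls were Hepacam2 at −1.61 (SE 0.22, adjusted p = 0.00326) and Pcolce, an enhancer of procollagen processing, at −1.60 (SE 0.35, adjusted p = 0.041). Over the alternative fits the difference ran from −1.97 to −0.43 for Hepacam2, −2.21 to −0.42 for Pcolce and −2.11 to −0.65 for Lratd1. Pcolce lost the threshold in 20 of 40 of these fits, Lratd1 in 12 and Hepacam2 in 3.

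Of 19 interferon-stimulated genes in the list, 16 lay below 0 (median −0.44) and none was called. The RNA-activated antiviral enzymes Oas2 and Oas1a stood at −0.83 (SE 0.26, adjusted p = 0.142) and −0.95 (SE 0.33, adjusted p = 0.189), Ifit3 at −0.93 (SE 0.29, adjusted p = 0.142) and the chemokine Cxcl10 at −1.04 (SE 0.41, adjusted p = 0.264). Interferon-linked genes outside the list did fall, and they were named after their values were seen. Samd9l, an interferon-induced antiviral factor (probe at chr6:3322520-3322579, mm9), ranged from 4.08 to 4.89 early (median 4.67) and from 2.74 to 3.92 late (median 3.51), without overlap. It fell by 1.17 (SE 0.16, 2.26-fold, adjusted p = 0.00326). Irf2, a transcription factor that binds interferon response elements, fell by 1.21 (SE 0.18, adjusted p = 0.00326), from a median of 1.97 to 0.76. Rnase6, an antimicrobial ribonuclease of monocytes, fell by 1.30 (SE 0.22, adjusted p = 0.0124) and Ifi214 by 0.90 (SE 0.20, adjusted p = 0.0435). The restriction factors Trim30a, Trim30d, Trim34a and Trim5, which lie close together on chromosome 7, fell by 0.88, 0.80, 0.81 and 0.89 (adjusted p = 0.0441, 0.0393, 0.0434 and 0.0441). Probes of such related genes can share signal.

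Promoters of the called genes, from 250 bases before to 50 bases after the start given by RefSeq on GRCm38.p6, were searched on both strands. The core of the interferon-stimulated response element, GAAANNGAAA, stood in 7 of 69 lower genes with a promoter entry (10.1%), in 419 of 12448 genes tested (3.37%) and in 3.49% of all 27025 promoters. The 7 were Trim30a, Trim30d, Trim34a, Trim5, Ifi214, Irf2 and Rnase6, 4 of them from the Trim cluster, and in Trim34a the match lay after the start. A box of the myeloid and B cell factor PU.1, GAGGAAGT, was found in 7 of 69 (10.1%), against 3.17% of genes tested, Il4i1, Kmo, Slamf9 and Trim5 among them. The octamer ATGCAAAT stood in 3 of 69 (4.35% against 1.48%), the E-box CACGTG in 9 (13% against 9.25%), the NF-kB consensus in 6 (8.70% against 9.65%) and the cAMP response element TGACGTCA in 0 (2.80% of genes tested). Among 17 higher genes 1 held the interferon element and 0 the PU.1 box. A match is a run of letters, not a known site. The sequences, each the 250 bases before the start, show where these letters lie, with the motif in capitals, for 3 genes with the interferon element (Irf2 also holds the NF-kB consensus) and for Il4i1 with the PU.1 box, each 5′ to 3′ on the gene's strand. They are chr7:104465194-104465443 (minus strand) for Trim30a, chr14:51128814-51129063 (plus) for Rnase6, chr8:46739495-46739744 (plus) for Irf2 and chr7:44836038-44836287 (plus) for Il4i1.
Trim30a: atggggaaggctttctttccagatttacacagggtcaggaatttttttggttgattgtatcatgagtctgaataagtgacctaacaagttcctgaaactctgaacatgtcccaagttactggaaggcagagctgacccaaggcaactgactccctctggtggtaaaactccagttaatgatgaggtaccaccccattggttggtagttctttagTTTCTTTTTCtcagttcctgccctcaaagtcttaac
Rnase6: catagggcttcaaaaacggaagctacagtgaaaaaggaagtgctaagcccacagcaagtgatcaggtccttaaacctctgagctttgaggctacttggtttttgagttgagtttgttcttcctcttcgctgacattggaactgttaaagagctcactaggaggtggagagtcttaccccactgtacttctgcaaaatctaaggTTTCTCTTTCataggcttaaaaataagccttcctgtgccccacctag
Irf2: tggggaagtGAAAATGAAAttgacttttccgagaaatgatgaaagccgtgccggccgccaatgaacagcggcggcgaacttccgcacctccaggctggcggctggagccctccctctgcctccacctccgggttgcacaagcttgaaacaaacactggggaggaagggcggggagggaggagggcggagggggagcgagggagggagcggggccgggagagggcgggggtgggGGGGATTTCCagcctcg
Il4i1: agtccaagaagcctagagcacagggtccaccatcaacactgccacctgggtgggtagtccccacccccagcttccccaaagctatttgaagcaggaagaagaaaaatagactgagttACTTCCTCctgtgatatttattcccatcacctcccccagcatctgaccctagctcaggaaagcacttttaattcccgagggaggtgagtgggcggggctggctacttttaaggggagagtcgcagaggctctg

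Of the inflammatory mediators, Tnf fell. Tnf ranged from −0.75 to 0.45 early (median −0.13) and from −2.56 to −0.54 late (median −1.38), so that the ranges met at their ends. It fell by 1.23 (SE 0.22, 2.35-fold, adjusted p = 0.0155). Of the 19 genes of the cytokine and NF-kB list 12 lay below 0 (median −0.34) and Tnf was the member called. That median was −0.18 without serum 1.5 h replicate 3 and also without OA 4 h replicate 2. Ptgs2, the inducible prostaglandin synthase, stood at −1.98 (SE 0.60, adjusted p = 0.129) and was detected on 8 of 12 early and 2 of 8 late arrays. Tnfaip3, a brake on NF-kB, stood at 0.87 (SE 0.28, adjusted p = 0.163). Of 14 Toll-like receptor and adaptor genes 12 lay below 0 (median −0.34, or −0.20 without OA 4 h replicate 2) and none was called, with the TLR4 co-receptor Ly96 at −0.87 (SE 0.21, adjusted p = 0.0608) and Tlr1 at −0.62 (SE 0.17, adjusted p = 0.0864). Of 18 immediate early genes, the first transcripts that a stimulus induces, 14 lay below 0 (median −0.37) and none was called. Egr2 stood at −1.26 (SE 0.40, adjusted p = 0.146). The immediate early median was 0.03 in serum and −0.55 in OA, and −0.10 without OA 4 h replicate 2.

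Hk2, Ankrd37, Chac1 and Sqle were the genes that fell in the hypoxia, unfolded protein response and sterol lists. Hk2, the inducible hexokinase that starts glycolysis, ranged from −2.27 to −0.10 early (median −0.93) and from −3.88 to −1.31 late (median −2.75). It fell by 1.67 (SE 0.29, 3.18-fold, adjusted p = 0.0138), detected on 11 of 12 early and 3 of 8 late arrays. Over the alternative fits its difference ran from −1.90 to −0.42. Ankrd37, a hypoxia-induced gene, fell by 0.90 (SE 0.18, adjusted p = 0.0262), and these were the 2 members called of 19 hypoxia and glycolysis genes (median −0.06, or 0.12 without OA 4 h replicate 2). Chac1, a glutathione-degrading enzyme of the unfolded protein response, ranged from 1.25 to 3.15 early (median 2.51) and from 0.08 to 1.86 late (median 0.40). It fell by 1.61 (SE 0.30, adjusted p = 0.0208), the member called of 14 in that list, of which 12 lay below 0 (median −0.30, or −0.20 without OA 4 h replicate 2) and 4 were lower at an unadjusted p under 0.05. Pdia4, a protein disulfide isomerase, stood at −0.78 (SE 0.19, adjusted p = 0.0635). Sqle, an enzyme of cholesterol synthesis, fell by 1.00 on the log2 scale (SE 0.23, adjusted p = 0.0494), and 12 of 15 sterol genes lay below 0 (median −0.26), 6 of them at an unadjusted p under 0.05, against 7.22% of all genes on the lower side. Idi1 of the same pathway stood at −0.71 (SE 0.19, adjusted p = 0.0948).

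The genes that rose were led by Trnp1, a nuclear protein known from neural progenitors (probe at chr4:133047017-133047076, mm9). It ranged from −3.70 to −1.34 early (median −2.21) and from −1.23 to 1.35 late (median −0.22). All 8 late arrays lay above all 12 early arrays, as for 4 of 24107 genes (0.0166%). Trnp1 rose by 2.32 (SE 0.35, 4.99-fold, adjusted p = 0.00474), with 1.84 (SE 0.53) in serum and 2.67 (SE 0.45) in OA. Tex45, a testis-expressed gene (probe at chr8:3486934-3486993, mm9), ranged from −4.58 to −2.07 early and from −2.06 to −0.37 late, with 3 of 12 early and 7 of 8 late arrays detected. It rose by 2.21 (SE 0.34, 4.64-fold, adjusted p = 0.00492). Most early values of Tex45 were not well above background, so its fold is uncertain. Over the alternative fits the difference ran from 0.60 to 2.58 for Tex45 and from 0.90 to 3.01 for Trnp1. Dnah2, an axonemal dynein heavy chain, rose by 1.59 (SE 0.30, adjusted p = 0.0208), though 1 early and 3 late arrays detected it. Fam71f2 rose by 1.37 (SE 0.26, adjusted p = 0.0218), detected on 2 early and 6 late arrays.

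Acer2, Gpd1, Slc27a5 and Plekha8 also rose, and their products act on lipids, a grouping made after their values were seen. Acer2, a ceramidase of the Golgi, rose by 1.31 (SE 0.26, adjusted p = 0.0291), from a median of −3.33 to −1.60, with 2 early and 7 late arrays detected. Gpd1, the cytosolic glycerol-3-phosphate dehydrogenase, rose by 1.14 (SE 0.25, adjusted p = 0.0418), detected on 2 early and 6 late arrays. Slc27a5, a fatty acid and bile acid coenzyme A ligase, rose by 1.08 (SE 0.21, adjusted p = 0.0245), detected on 7 early and 7 late arrays. Plekha8, a glycolipid transfer protein, rose by 0.92 (SE 0.19, adjusted p = 0.038). The list of 18 PPAR target and lipid droplet genes, which holds none of these, had a median of 0.11 (0.04 without OA 3 h replicate 2 and 0.21 without OA 4 h replicate 2) with 0 called. Clca3a1, known from vessel and airway lining cells, rose by 1.30 (SE 0.29, adjusted p = 0.0442) and Ston1, an endocytic adaptor, by 1.39 (SE 0.30, adjusted p = 0.0427). Lrrc29 rose by 1.07, Dipk1b by 1.23, Cct6b by 0.95 and Ipcef1 by 0.93, although 4 probes of Ipcef1 ranged from 0.18 to 0.93. Over the alternative fits the difference ran from 0.50 to 1.24 for Lrrc29, 0.28 to 1.38 for Dipk1b and 0.23 to 1.15 for Cct6b. Lrrc29 lost the threshold in 29 of 41 of these fits, Dipk1b in 29 of 40 and Cct6b in 28 of 40. H1f10, a linker histone, passed the test (adjusted p = 0.041) but was well above background on 3 late arrays and on no early array, so no difference or fold is given. Ramp3, a receptor-modifying protein noticed after its values were seen, rose by 0.87 (SE 0.17, adjusted p = 0.0242).

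**Figure D3:**
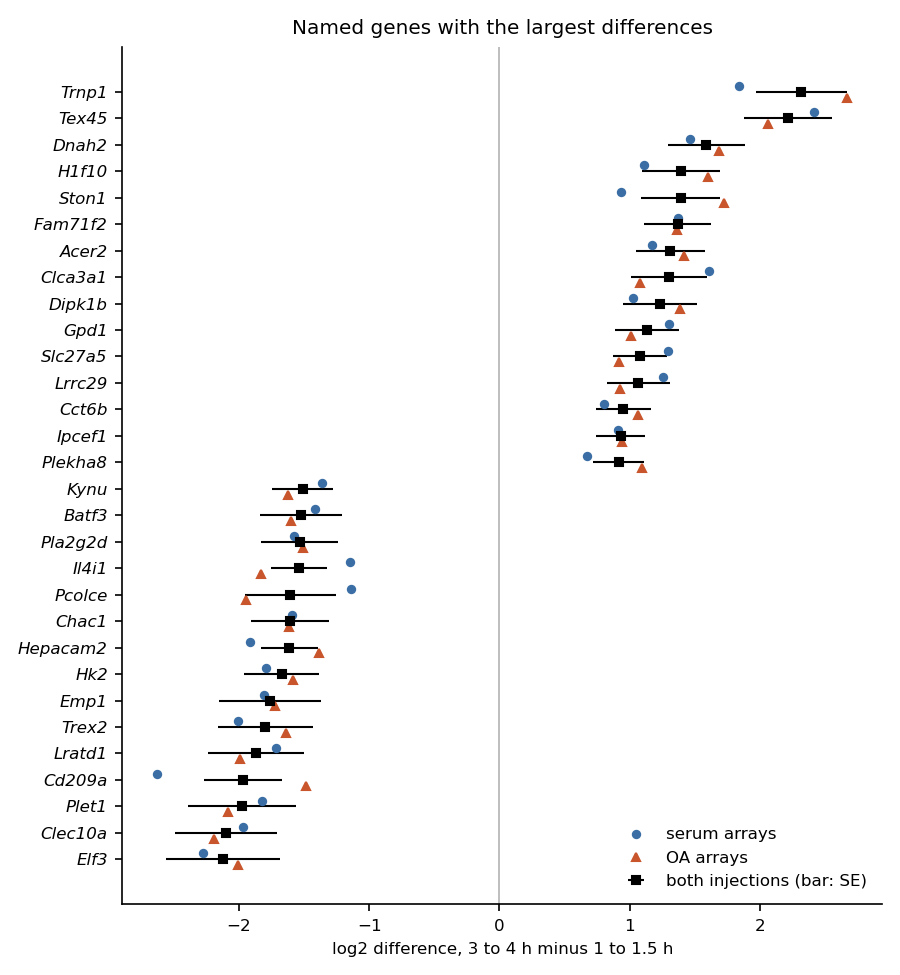
Log2 difference (horizontal axis, 3 to 4 h minus 1 to 1.5 h) of the 15 named genes with the largest rise and the 15 with the largest fall, with black squares for the joint estimate, bars for its SE, circles for serum arrays and triangles for OA arrays. Estimates run from −2.12 for Elf3 to 2.32 for Trnp1, and both injections lie on the same side of 0 for each gene. H1f10 was not well above background on any early array, so its position has no reading as a fold.

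Among these 30 genes, Trnp1, Tex45, Dnah2, Cd209a, Hk2, Hepacam2, Il4i1 and Kynu passed in all 20 fits that left out 1 array. The other rises passed in 2 of 20 (Lrrc29) to 19 of 20 (Fam71f2), and the other falls in 6 of 20 (Emp1) to 19 of 20 (Chac1). Cr2, Ms4a1, Tnf, Samd9l and Irf2 passed in all 20, Ccr2 in 16 and Bank1 in 9.

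Platelet genes stood higher late as a whole list without a single call. All 14 lay above 0 (median 1.05) and all 14 had an unadjusted p under 0.05, against 5.75% of all genes on the higher side. Members of a list can move together from array to array, so such a count is not one of independent results. The SD of the platelet list mean within groups was 0.71. Ppbp, the platelet chemokine precursor, ranged from 5.85 to 9.23 early (median 7.08) and from 7.32 to 9.22 late (median 8.65). It stood at 0.98 (SE 0.26, adjusted p = 0.0863), Pf4, platelet factor 4, at 0.98 (SE 0.28, adjusted p = 0.115) and the surface receptor Treml1 at 1.09 (SE 0.32, adjusted p = 0.12). The list mean ran from 3.03 to 6.56 on early and from 4.07 to 6.40 on late arrays. The highest early array was OA 1.5 h replicate 2 and the lowest late one OA 4 h replicate 2, without which the list median was 1.28. By injection the median was 1.44 in serum and 0.79 in OA. Vwf, which megakaryocytes and endothelium both make, stood at 1.14 (SE 0.34, adjusted p = 0.121), and the 5 endothelium genes measured had a median of 0.34 with 0 called (0.15 without OA 4 h replicate 2 and 0.22 without OA 3 h replicate 1). By injection the endothelium median was −0.16 in serum and 0.37 in OA, and 3 of the 5 genes were detected on all 20 arrays.

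T cell genes leaned upward. Of 16 measured, 14 lay above 0 (median 0.37) and 1 rose. Lat, the adaptor that links the T cell receptor to its downstream kinases, is also present in platelets. It ranged from 3.30 to 4.20 early (median 3.97) and from 4.10 to 5.04 late (median 4.65), and rose by 0.71 (SE 0.15, adjusted p = 0.0393). The costimulator Cd28 stood at 0.66 (SE 0.23, adjusted p = 0.193) and the receptor chain Cd247 at 0.79 (SE 0.28, adjusted p = 0.188). The homing and naive T cell list had a median of 0.08 (0.02 to 0.20 with 1 array left out) with 1 call. Of 14 NK and cytotoxic genes 12 lay below 0 (median −0.23, or −0.14 without OA 4 h replicate 2) and none was called, with the activating receptor Ncr1 at −0.78 (SE 0.21, adjusted p = 0.098). Klrc3, an NK receptor gene noted after its values were seen, passed at adjusted p = 0.041 and was not well above background on any late array. With the scaling and background treatment of the main fit this bounds it at least 1.65-fold lower. That bound does not hold across the alternative fits, where its difference ran from −1.43 to −0.16 and lost the threshold in 26 of 40.

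Granulocytes, erythroid cells and tissue cells can enter such a preparation, and no member of the lists set for them was called. The 18 mature neutrophil genes had a median of −0.37 (15 below 0, and −0.22 without OA 4 h replicate 2), with list means of 2.98 to 5.58 early and 2.61 to 5.30 late. The 11 immature neutrophil granule genes had a median of −0.24 (−0.47 without OA 3 h replicate 3 to −0.09 without serum 3 h replicate 1), but the granule proteins Camp and Ngp stood at 0.99 (SE 0.34, adjusted p = 0.186) and 0.97 (SE 0.28, adjusted p = 0.115). The 15 erythroid genes measured had a median of 0.18, with −0.27 in serum and 0.32 in OA, and from 0.01 without OA 1.5 h replicate 2 to 0.34 without OA 3 h replicate 1. The 6 basophil genes measured had a median of −0.29, or −0.04, −0.15 and −0.19 without OA 4 h replicate 2, OA 4 h replicate 1 and OA 1.5 h replicate 1. Of 6 lung epithelium genes measured, 5 lay above 0 (median 0.78, or 0.51 without OA 4 h replicate 2) and none was called or detected on all 20 arrays. Sftpc, the surfactant protein C gene, ranged from −5.16 to −2.11 early and from −5.15 to 0.73 late (1.46, SE 0.52, adjusted p = 0.196), detected on 1 early and 3 late arrays.

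**Figure D4:**
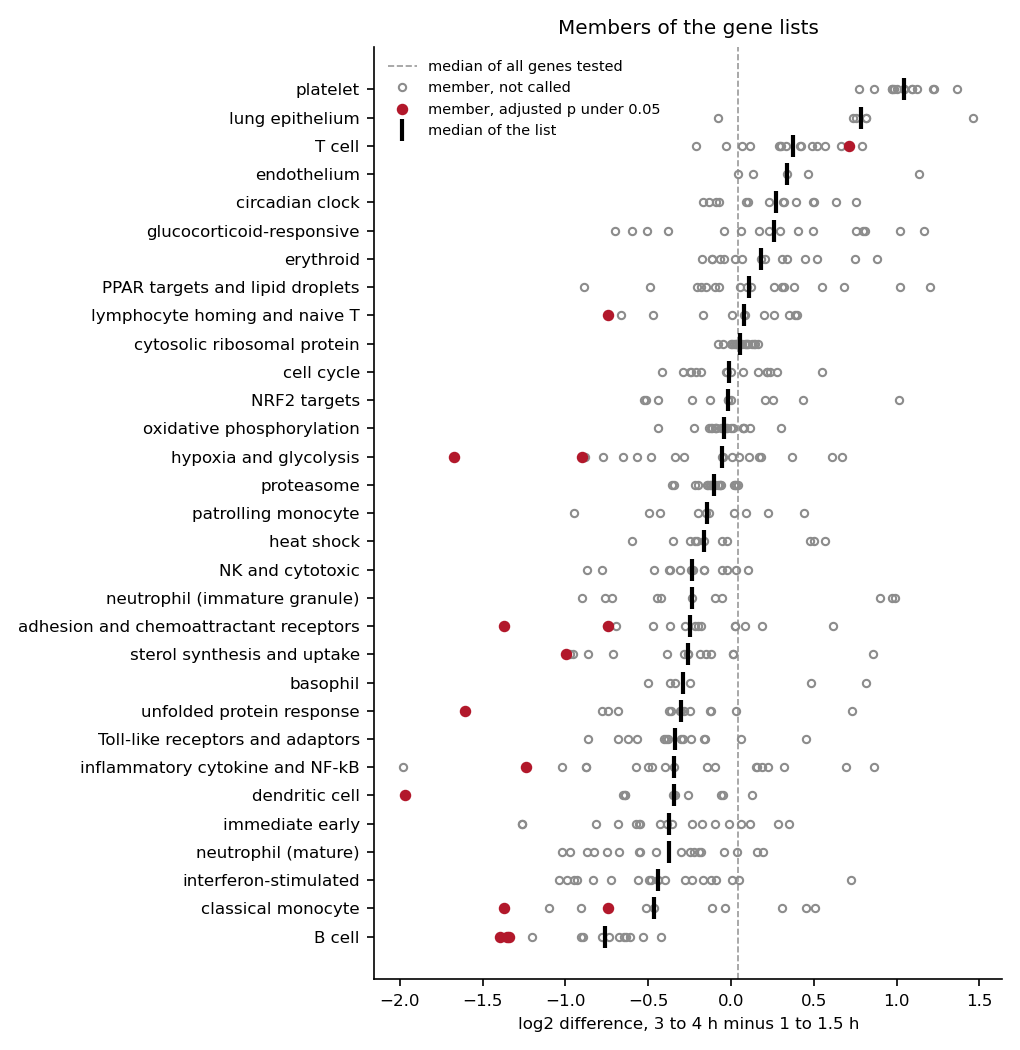
Log2 difference (horizontal axis, 3 to 4 h minus 1 to 1.5 h) of each measured member of the 31 gene lists, with open circles for members not called, red circles for members called, black bars for list medians and a dashed line at 0.04, the median of all genes. B cell members all lie below 0 and platelet members all lie above it.

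Glucocorticoid-responsive genes, which answer the adrenal stress hormone, had a median of 0.26 (11 of 16 above 0) and 0 called, with 0.15 without OA 3 h replicate 3 and 0.47 without OA 4 h replicate 2. Among them Ddit4, an inhibitor of mTOR, stood at 1.17 (SE 0.40, adjusted p = 0.175), the metallothionein Mt1 at 1.02 (SE 0.30, adjusted p = 0.116) and the receptor co-chaperone Fkbp5 at 0.76 (SE 0.25, adjusted p = 0.161). Circadian clock genes had a median of 0.27 (10 of 14 above 0, and 0.17 without OA 3 h replicate 1) and 0 called, with Nr1d2 at 0.63 (SE 0.23, adjusted p = 0.202). The adhesion and chemoattractant receptor list had a median of −0.25 (11 of 16 below 0, and −0.15 without OA 4 h replicate 2), and 2 calls, Ccr2 among them. Lists for NRF2 targets (median −0.02), heat shock (−0.16), cell cycle (−0.01), cytosolic ribosomal proteins (0.05), oxidative phosphorylation (−0.04) and the proteasome (−0.10) held 0 called genes. In serum and in OA the medians were 0.30 and −0.09 for ribosomal, 0.18 and −0.22 for oxidative phosphorylation, and 0.16 and −0.27 for proteasome genes. They were −0.04 and 0.07 for NRF2 targets, 0.11 and −0.34 for heat shock, and 0.21 and −0.11 for cell cycle genes. A joint median near 0 therefore need not mean that neither injection group changed. Without OA 4 h replicate 2 the joint medians were 0.10 for NRF2 targets, −0.01 for heat shock, 0.16 for cell cycle, 0.11 for oxidative phosphorylation and 0.04 for proteasome genes, and that of ribosomal genes was 0.18, or −0.01 without OA 3 h replicate 3.

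The next-day arrays, taken at 18 and 24 h and used in no test here, show where the called genes stood later. Averaged over the 10 next-day arrays, 93 of the 111 lower genes and 25 of the 33 higher genes lay nearer to their early than to their late mean. On the 6 OA arrays these were 98 of 111 and 26 of 33, and on the 4 serum arrays 72 of 111 and 25 of 33. These genes were chosen for the distance between their early and late means. The late mean rests on 8 arrays and the early mean on 12, so the choice itself favours nearness to the early mean. The share over all genes tested is not given, so the counts do not by themselves show a return to early levels. Cr2 averaged 4.07 in serum and 3.76 in OA at 18 h, above its early median of 2.82, and 2.36 and 3.61 at 24 h. Il4i1 averaged 4.04 and 3.67 at 18 h, and 2.67 and 3.89 at 24 h. Chac1 and Plet1 behaved otherwise, with Chac1 at 0.06 and 1.00, and Plet1 at 1.09 and 1.24, in serum and OA at 18 h, near their late levels. B cell list means at 18 h were 4.15 in serum (SD 0.19, n = 2) and 4.15 in OA (SD 0.41, n = 3). At 24 h they were 2.98 in serum (SD 1.01, n = 2), below the late serum mean of 3.19, and 4.10 in OA (SD 0.14, n = 3).

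**Figure D5:**
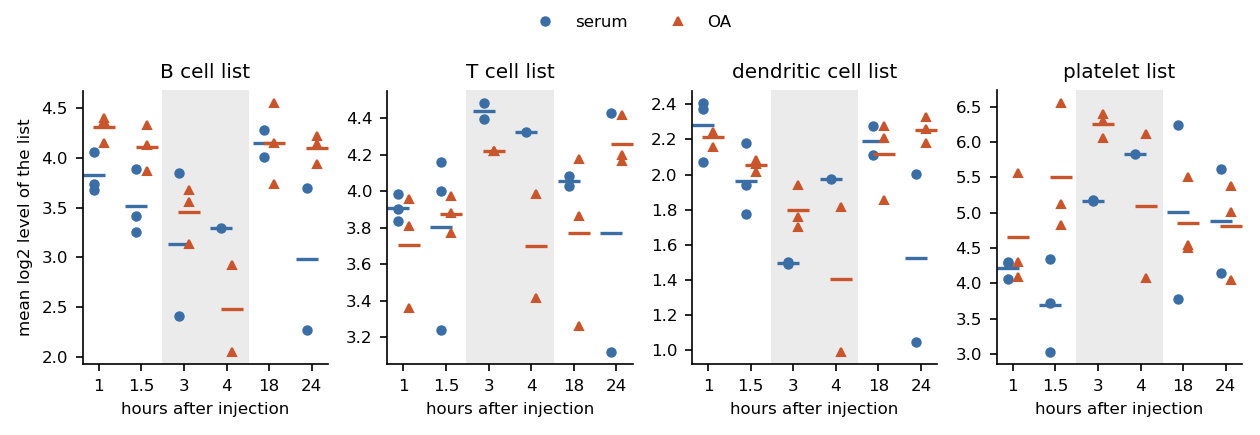
Mean log2 level of the B cell, T cell, dendritic cell and platelet lists (vertical axes) on all 30 arrays by hours after injection (horizontal axes), with circles for serum, triangles for OA, short lines for group means and grey shade for 3 and 4 h. B cell means average 3.46 in OA at 3 h and 2.48 at 4 h, against 4.31 at 1 h and 4.15 at 18 h. In serum at 24 h they average 2.98, from arrays at 2.26 and 3.70.

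Taken in serum or OA arrays alone, the time change gave no call by limma. In serum 0 genes passed, with 1686 at an unadjusted p under 0.05 (6.99%) and a smallest adjusted p of 0.133. In OA 0 passed, with 3991 (16.6%) and a smallest adjusted p of 0.0508, and 273 passed without OA 3 h replicate 3, 63 without OA 3 h replicate 1, 6 without serum 1 h replicate 3, 3 without OA 1.5 h replicate 2, 2 without OA 4 h replicate 1, and 1 each without serum 3 h replicate 2 or serum 4 h replicate 1. In serum 1 gene passed without serum 1.5 h replicate 1 and 1 without serum 3 h replicate 1. The difference between the OA and serum time changes also gave 0 calls, with 2309 genes at an unadjusted p under 0.05 (9.58%) and a smallest adjusted p of 0.351. Without serum 1.5 h replicate 1 it gave 1. The 5 genes with the smallest p were Asph, an aspartate hydroxylase of the endoplasmic reticulum (difference 2.75, SE 0.49, adjusted p = 0.351), Cdh22 (2.51, SE 0.58), Cyp4f41-ps (3.10, SE 0.73), Oip5 (3.43, SE 0.88) and Cyp39a1 (2.98, SE 0.76), the last 4 at adjusted p = 0.518. Each was lower late in serum and higher late in OA, as the intergenic signal was. With that signal as a covariate the 5 differences ran from 1.90 to 2.66, and 0 genes passed. These p values do not show that serum and OA animals changed alike.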

How the data were processed

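The deposited scanner files hold intensity values of 1-colour (Cy3) Agilent mouse arrays, 1 per sample, read with Agilent Feature Extraction 10.5.1.1 per the submitters' processing notes. Per the file headers the processed signal is corrected for background within the array and not normalized between arrays. The deposited table of the authors' processed values is on a log2 scale, with its background correction and scaling not given in the sources used here, and served as an alternative only. Of 62976 spots, 3671 controls and spots with an outlier mark were left out. The log2 of the processed signal minus each array's 75th percentile over non-control probes was used. Probes needed a mark well above background on 3 or more of the 20 arrays (33970 did), and the probe with the highest mean stood for a gene. Names came from the GRCm38.p6 reference tables by accession (26855 probes), symbol (3757) or older symbol (625), and 24444 stayed under the name in the file. Coordinates of probes follow the files, in mm9.

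limma 3.58.1 in R 4.3.3 fitted stage (late or early) and treatment on 17 residual degrees of freedom (prior 3.30, median residual SD 0.57). A second fit with 4 cells gave the serum, OA and interaction contrasts. All tests were two-sided at a Benjamini-Hochberg adjusted p of 0.05. On data simulated for late minus early over 24107 genes the fit recovered 47 of 100 genes changed by 1 (log2) and 72 of 100 changed by 2, with 3 unchanged genes called. The simulated noise was independent for each gene and array and held no shift common to an array, so these rates need not hold for the real arrays.

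Named genes are, of symbols called with equal sign in serum and OA, the 15 largest rises and 15 largest falls, up to 4 members per list by smallest p, and the 5 smallest interaction p values. The comparison and the 31 gene lists, with 460 genes of which 426 were measured, were chosen with earlier results of these data known. A few list members are not reported here. Alternatives covered background correction, scaling, the filter, probes, slide, scan day, replicate number, times used, an intergenic covariate, array weights and each array left out. Leaving out the 3 arrays of lowest correlation, and the intergenic covariate with the slide block or in the 4-cell fit, were added after seeing the data.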

Additional observations from a re-analysis of the deposited data

Results flagged for a closer look

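In 15 of 183 sets of 4 to 10 arrays tested, 1 array lay far from the others by Dixon's criterion, which chance alone meets in about 1 of 20 sets. For named genes, Lrrc29 was at 0.86 on OA 1.5 h replicate 2, with the next array at −0.53. Clec10a was at −1.34 on OA 1.5 h replicate 3 (next −0.84), Plet1 at 1.10 on OA 1 h replicate 1 (next 3.01), and Hepacam2 at −0.40 on OA 1 h replicate 2 (next −1.02). Lratd1 was at −4.12 on OA 3 h replicate 2 (next −2.22), Pla2g2d at 0.80 on serum 1 h replicate 3 (next −0.02), and Batf3 at −1.22 on serum 1.5 h replicate 3 (next −0.39).

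For list means, OA 4 h replicate 2 was the distant array for patrolling monocytes (1.05, next 2.56), dendritic cells (0.99, next 1.70) and platelets (4.07, next 6.06). On serum 1.5 h replicate 3 the T cell mean was 3.24 (next 3.84) and the cell cycle mean −0.83 (next −0.40). On OA 1 h replicate 1 the T cell mean was 3.36 (next 3.77) and the proteasome mean 3.69 (next 4.02). The classical monocyte mean on serum 1 h replicate 1 was 1.98 (next 2.82).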

How the results depend on the processing

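All 144 genes kept their direction under every alternative in which they were measured, except 1 with the mean of a gene's probes. Their choice on the same arrays largely fixes this. No named gene reversed. Of the comparisons of named genes with alternatives, 3856 kept their side of the threshold, 850 lost it and 201 passed it. Counts of higher and lower genes were 5 and 32 without a filter on dim probes, 83 and 266 for probes detected on all 20 arrays, 16 and 61 without the treatment term, 7 and 29 with the 3 h arrays as late, 14 and 62 with the 4 h arrays as late, 4 and 1 with the 1 h arrays as early, and 0 and 0 with the 1.5 h arrays as early (2233 at an unadjusted p under 0.05). They were 531 and 523 with array weights, 215 and 240 without the 3 arrays of lowest correlation, 11 and 55 with a fixed slide block, 705 and 418 with the intergenic covariate, and 739 and 420 with both. Scaling to the median gave 459 and 480, quantile normalization 187 and 323, normexp 3 and 40, and the deposited values 260 and 528. Leaving out 1 array gave 5 to 310 higher and 28 to 207 lower. The cause of these differences was not tested.

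Same-numbered arrays did not deviate together (52 pairs, r from −0.569 to 0.492, median −0.02, and 4 of 19 arrays closest to their own number). The fit with the replicate block called 10 higher and 60 lower.

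In serum alone, counts were 10 with median scaling, 4 with quantile normalization, 15 in the deposited table and 2 with the intergenic covariate. Leaving out 1 array gave 0 to 1, and 0 to 1 for the interaction. In OA alone they were 43, 6 and 90 in the first 3 of these, 31 with normexp and 62 with probes detected on all arrays, and 0 to 273 with 1 array left out.

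With the 4 h arrays as late, list medians were −1.13 for mature neutrophils, −0.63 for dendritic cells, −0.26 for homing, −0.89 for basophils, 1.59 for lung epithelium, −1.09 for immediate early, −0.30 for glucocorticoid-responsive, −0.41 for hypoxia, −0.65 for adhesion and −0.67 for Toll-like receptor genes. The basophil median was 0.14 with 3 h as late and 0.13 with 1 h as early, the erythroid one −0.57 with 1 h as early, and that of immature neutrophils 0.40 over probes detected on all arrays. The other list medians moved by less than 1 SD.

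On data simulated with independent noise, 47 of 100 genes changed by 1 (log2) were found, so a smaller change can go undetected with 20 arrays. The simulation held no shift of a whole array, so the rate in the real data is not known.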
